A study of Mus musculus with 25 samples.

Results

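The genes described here are 32 mouse genes of protein folding and quality control in the endoplasmic reticulum (ER), chosen by name as ER chaperones and genes of the unfolded protein response. Each of the 32 symbols was found under 1 of the 41388 Ensembl identifiers in the count tables, and all 32 were among the 14065 genes kept for testing, which lay above 1 CPM (counts scaled to a common library size) in at least 2 libraries. By role, 4 were genes of stress sensing (Xbp1, Atf6, Ern1, Eif2ak3). The HSP70 and HSP90 chaperones and their cofactors made up 10 (Hspa5, Hsp90b1, Hyou1, Dnajb9, Dnajb11, Dnajc3, Dnajc10, Sdf2l1, Manf, Creld2). There were 2 lectin chaperones (Calr, Canx) and 5 disulfide enzymes (Pdia3, Pdia4, Pdia6, P4hb, Ero1l). Another 8 were genes of ER-associated degradation (Herpud1, Edem1, Edem2, Sel1l, Syvn1, Derl1, Derl2, Derl3). The last 3 belonged to the membrane channel through which new proteins enter the ER (Sec61a1, Sec61b) or were associated with it (Ssr1).

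The study asked how hepatic NAMPT, which catalyses the limiting step of NAD+ salvage from nicotinamide, acts on liver gene expression in mice fed a Western diet, and whether the NAD+-dependent deacetylase SIRT1 is needed for it. Liver RNA of 25 male mice was sequenced, 1 library per mouse. Mice received AAV8 virus, whose cargo was driven by the hepatocyte-directed thyroxine-binding globulin promoter, carrying either nothing (EV) or NAMPT. The genotypes were littermates with LoxP sites on both copies of Sirt1, without Cre (WT) or with Cre under the albumin promoter (SIRT1 LKO). The strain is labelled C57B/6J, the age 20 weeks and the study length 12 weeks. The groups were chow-fed WT with EV (chow WT EV, n = 3) and, on Western diet (WD), WD WT EV (n = 6), WD WT NAMPT (n = 6), WD LKO EV (n = 5) and WD LKO NAMPT (n = 5). Every mouse, controls included, therefore carried virus and, by the methods, the floxed allele. The general treatment note in the labels names the virus insert as SIRT1, whereas the titles and the series text name NAMPT, and the titles were followed.

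Proteins destined for secretion, of which hepatocytes make large amounts, are folded in the ER by chaperones led by BiP, the product of Hspa5. When unfolded proteins accumulate, IRE1 (Ern1) splices the Xbp1 message, PERK (Eif2ak3) slows translation and favours ATF4, and ATF6 is cut to release a transcription factor. XBP1 and ATF6 then raise genes for chaperones, disulfide enzymes and ER-associated degradation, the route by which misfolded proteins are passed out of the ER and destroyed.

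Total counts ranged from 20166175 to 32937326 per library. Sirt1 over the whole gene did not separate the genotypes. It was measured at 7.99 CPM (lowest), 9.04 (median) and 9.53 (highest) in WD WT EV and at 7.16, 7.22, 8.81, 10.1 and 9.61 CPM in the 5 libraries labelled LKO EV, a difference of -0.07 ± 0.10 log2 (SE, limma adjusted p = 0.99). A whole-gene count may not register the loss of a short exon, so the genotype is given as labelled throughout. Nampt was 38.3, 49.2 and 54.1 CPM (lowest, median, highest) in WD WT EV and 46.8, 58.8 and 77.8 in WD WT NAMPT, a log2 difference of 0.34 ± 0.16 (SE, adjusted p = 0.144), and the groups overlapped. In the libraries labelled LKO, Nampt was 46.0, 46.7, 56.5, 75.6 and 55.7 CPM with EV and 73.6, 83.5, 127, 62.1 and 53.9 with NAMPT (0.41 ± 0.16, adjusted p = 0.403), also with overlap. Under NAMPT, Sirt1 was 0.19 ± 0.11 log2 higher in LKO than in WT (adjusted p = 0.237), which is not the direction of the label. All 6 hepatocyte markers were present in every group, with a summed level of 57500 to 77600 CPM per library on Western diet and 74300 to 83300 on chow. In bulk liver, fewer cells of a type and less RNA per cell cannot be told apart.

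The element that XBP1 and ATF6 are known to act through was visible in the promoters of several of these genes. It is called the ER stress element (ERSE, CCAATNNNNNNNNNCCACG). In RefSeq windows from 250 bases before to 50 bases after the gene start (GRCm38.p6, both strands searched), 26 of the 32 genes had a window, and none was given for Atf6, Hyou1, Manf, Ero1l, Derl1 or Sec61a1. ERSE was found in 9 of the 26 (34.6%): Calr, Canx, Creld2, Derl3, Dnajc3, Hsp90b1, Hspa5, Pdia6 and Syvn1. The share over all 32817 windows in the table was 0.119%, counted per window, whereas the members were counted per gene. The related ERSE-II (ATTGG, 1 base of any kind, CCACG) was in Herpud1 and Dnajb11 (7.69%, against 0.0366% of all windows). The unfolded protein response element TGACGTGG was in none of the 26, against 0.676% of all windows. The genes below are shown because Creld2 and Syvn1 had some of the highest correlations with Hspa5 given below, Calr fell with the diet and Herpud1 rose with it. Each line is written 5′ to 3′ on the strand of its gene, with the fixed letters of the motif in capitals; in Creld2 and Calr the motif is read on the opposite strand.
Hspa5: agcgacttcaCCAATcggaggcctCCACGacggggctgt
Creld2: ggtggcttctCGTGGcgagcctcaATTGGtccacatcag
Syvn1: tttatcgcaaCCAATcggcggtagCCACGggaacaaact
Calr: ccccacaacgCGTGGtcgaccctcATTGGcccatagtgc
Herpud1: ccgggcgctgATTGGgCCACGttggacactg
These stretches lie at chr2:34772015-34772053 (plus strand, Hspa5), chr15:88819510-88819548 (plus, Creld2), chr19:6046522-6046560 (plus, Syvn1), chr8:84847065-84847103 (minus, Calr) and chr8:94386367-94386397 (plus, Herpud1). All lie upstream of the RefSeq start; the Ensembl model of Hspa5, which spans chr2:34771970-34776531, begins before its stretch. A match of letters describes the sequence and was not tested as a binding site.

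The members covered most of the range of expression in liver. Per length, as the mean over the 25 libraries in RPKM (reads scaled by gene length and library size), P4hb, the disulfide isomerase PDI, was highest at 439 ± 47.8 (SD), followed by Calr (calreticulin), by Hspa5 at 164 ± 32.7 and by Herpud1, an ER membrane protein of the degradation complex, at 122 ± 36.3. P4hb stood at the 99.1 percentile of the 14065 genes. The lowest were Eif2ak3 (3.97 ± 0.833 RPKM), the oxidase Ero1l (3.79 ± 0.64) and Derl3 (1.71 ± 1.62). Derl3 also varied most, from 4 to 243 counts per library (0.201 to 11.2 CPM), whereas Sec61a1, the pore of the translocation channel, varied 1.35-fold. Reads could be shared with an overlapping gene in 7 members, over more than 100 exonic bases in Hsp90b1, Derl2 and Manf, and the use of strand in counting is not stated.

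**Figure D1:**
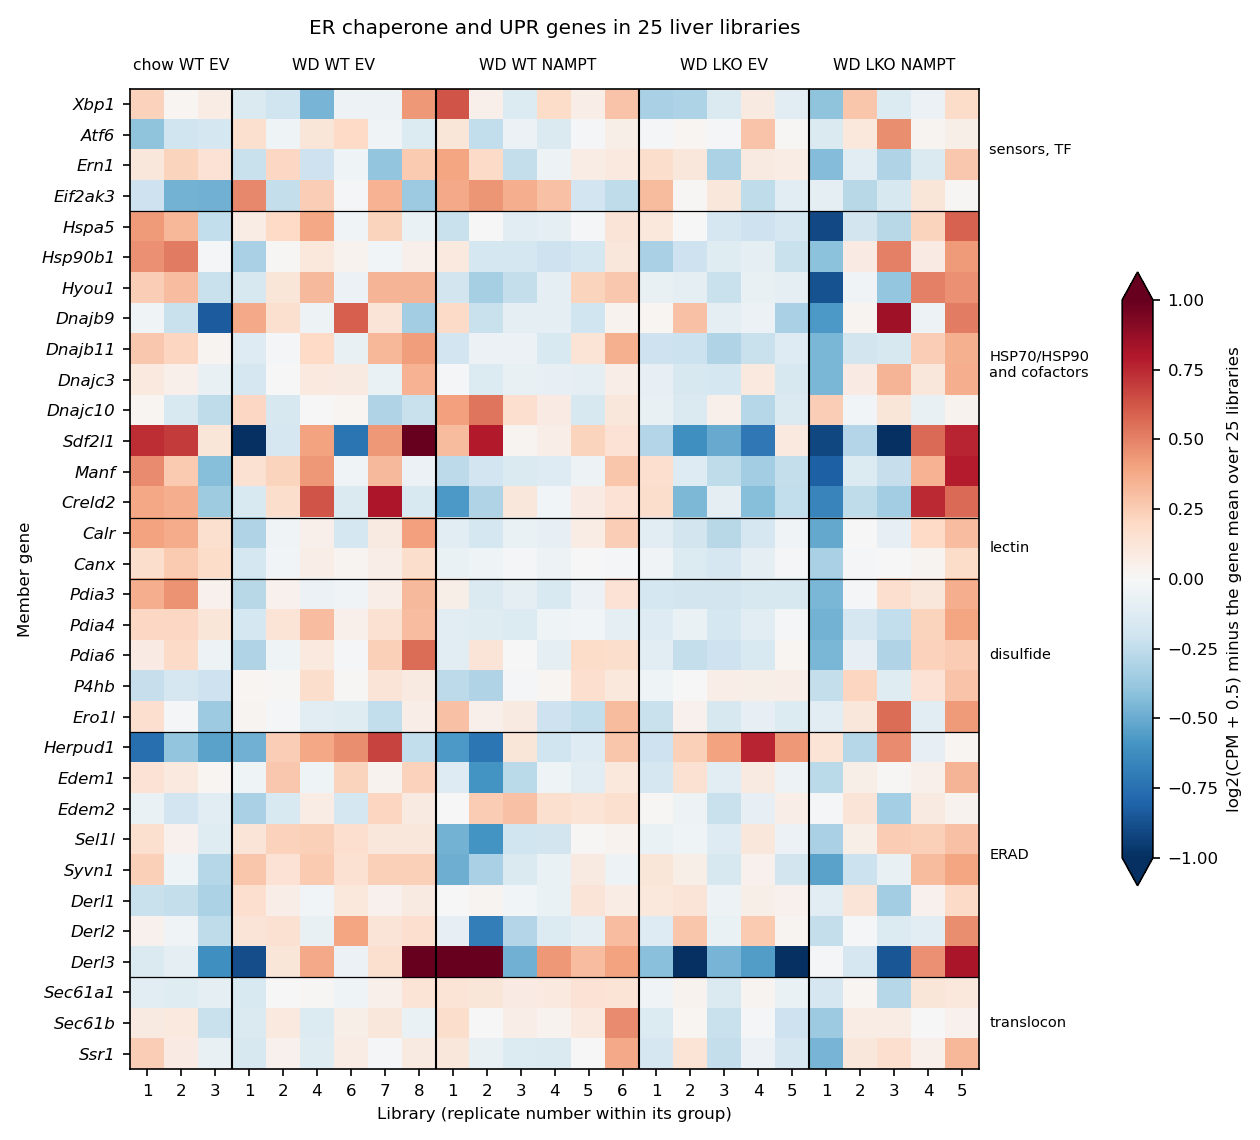
Levels of the 32 genes in the 25 libraries, as log2 CPM minus each gene's mean over the libraries (colour), with genes in rows by role and libraries in columns by group. WD LKO NAMPT replicate 1 is low and replicate 5 high across most genes, with a mean over the 32 genes of -0.37 and 0.33.

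In WT mice on Western diet, NAMPT was accompanied by changes in 3 of the 32 genes (9.38%), all of them in ER-associated degradation. Sel1l and Edem1 fell and Edem2 rose. Across all genes 13.4% were called in this comparison (7.67% higher, 5.77% lower; limma with voom and sample weights, adjusted p of 0.05 or less), so the share among the members was no larger than the background. At an unadjusted p under 0.05, 7 members passed, against 30.3% of all genes. The median log2 difference of the members was -0.08, that of all genes was 0, and 22 members were lower in NAMPT.

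Sel1l encodes the scaffold of the HRD1 ubiquitin ligase complex, through which misfolded proteins leave the ER. It was measured at 183, 196, 198, 188, 182 and 181 CPM in WD WT EV replicates 1, 2, 4, 6, 7 and 8. It was measured at 120, 110, 145, 147, 169 and 172 CPM in WD WT NAMPT replicates 1 to 6. Every NAMPT library lay below every EV library, and NAMPT replicates 1 and 2 lay lowest (log2 difference -0.37 ± 0.09 SE, adjusted p = 0.0125). Libraries of both groups did not overlap in 0.960% of all genes.

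Syvn1, the HRD1 ligase itself, which works together with SEL1L, was also measured without overlap: 91.4 (lowest), 97.7 (median) and 101 CPM (highest) in WD WT EV, and 59.0, 76.9 and 88.3 in WD WT NAMPT. The test did not call it (-0.33 ± 0.12 log2, adjusted p = 0.0693). Edem1, a mannosidase-like protein that marks misfolded glycoproteins for removal, fell from 238, 269 and 295 CPM to 162, 226 and 264 CPM (-0.29 ± 0.09, adjusted p = 0.0438), and the groups overlapped. Its relative Edem2 rose, from 39.4, 48.3 and 57.5 CPM to 49.2, 55.3 and 60.7 CPM (0.26 ± 0.08, adjusted p = 0.0431), also with overlap. Derl2, a derlin of the same route, was at 95.2, 111 and 132 CPM against 61.9, 92.8 and 124 (-0.33 ± 0.11, adjusted p = 0.0548). Herpud1 was at 196, 341 and 436 CPM against 165, 245 and 331 (-0.32 ± 0.18, adjusted p = 0.23). Of the 8 degradation genes 6 were lower in NAMPT, and their median log2 difference was -0.3. Of 14 other degradation genes, part of the 86 ER genes described below, 9 were lower, with a median of -0.05. Among these, 2 were called, both lower.

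The folding genes gave no call. Hspa5 was at 540, 623 and 740 CPM (lowest, median, highest) in WD WT EV and at 484, 544 and 620 in WD WT NAMPT, with wide overlap (-0.22 ± 0.15, adjusted p = 0.33). Manf, a secreted ER protein that binds BiP, differed by -0.30 ± 0.17 (adjusted p = 0.245). Among the 10 HSP70 and HSP90 genes 8 were lower, with a median of -0.18 and a smallest adjusted p of 0.121. The lectin chaperones and disulfide enzymes had medians of -0.04 and -0.07. Xbp1 was at 125, 162 and 234 CPM against 157, 189 and 268 (0.22 ± 0.13, adjusted p = 0.257), so the total message of this factor was not called; spliced and unspliced Xbp1 are not separated in gene counts.

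These calls depended on the test and on single libraries. Edem1 was called under none of the 11 other settings, Edem2 under 3 of them and Sel1l under 8. The edgeR quasi-likelihood test called 0 members (7 at an unadjusted p under 0.05), and edgeR's exact test and DESeq2 called Sel1l alone. A fit with 2 surrogate variables called none of the 3 but Sec61b, higher. The count was 0 without WD WT EV replicate 2 or WD WT NAMPT replicate 3, beside 291 and 132 genes of all. It was 1 without WD WT EV replicate 6 or WD WT NAMPT replicate 2, beside 628 and 741 genes. Without WD WT NAMPT replicate 5 it was 6, beside 2803 genes (19.9%). Scaling by library size alone moved the median of all genes to 0.16 and that of the members to 0.07, so the members stayed below all genes under both scalings while the sign of their own median changed; it called 5 members, 4 of them higher.

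Markers of other cell types moved with the NAMPT group. All 7 macrophage markers were higher, 6 of them called. Their summed level was 287 to 440 CPM in WD WT EV, and 1040, 1170, 1020, 663, 541 and 282 CPM in WD WT NAMPT replicates 1 to 6. The replicates lowest in Sel1l, 1 and 2, were among the 3 highest in macrophage markers. Replicate 6, whose macrophage sum was below that of every WD WT EV library, had Sel1l at 172 CPM, still under the lowest WD WT EV value of 181. Stellate cell markers summed to 263 to 461 CPM in WD WT EV and to 262 to 900 in WD WT NAMPT, with 3 of 6 called higher. Neutrophil markers summed to 1.09 to 5.39 CPM in WD WT EV and to 1.24 to 19.1 (median 9.59) in WD WT NAMPT, with all 3 tested positive and 1 called. All 3 T cell markers tested were positive (median 0.78) with 0 called, and B and plasma cell markers summed to 2.74 to 4.75 CPM in WD WT EV and to 3.17 to 8.47 in WD WT NAMPT. Of 6 endothelial markers 1 was called higher and 1 lower, with sums of 263 to 318 CPM in WD WT EV and 249 to 408 in WD WT NAMPT. The part of these cells in the differences was not tested. Clock genes moved with NAMPT as well: of 5 genes high at one phase, 4 fell, among them Arntl (-1.99 ± 0.44, adjusted p = 0.0119) and Npas2 (-1.98 ± 0.64, adjusted p = 0.0419), and of 11 of the opposite phase 8 were positive, with a median of 0.28, and the single call was Hlf, which fell (-0.48 ± 0.16, adjusted p = 0.0484). With a score over these 16 genes as a covariate, Sel1l and Herpud1 were called lower, beside 2735 genes of all (19.4%). Edem1 and Edem2 were then not called.

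**Figure D2:**
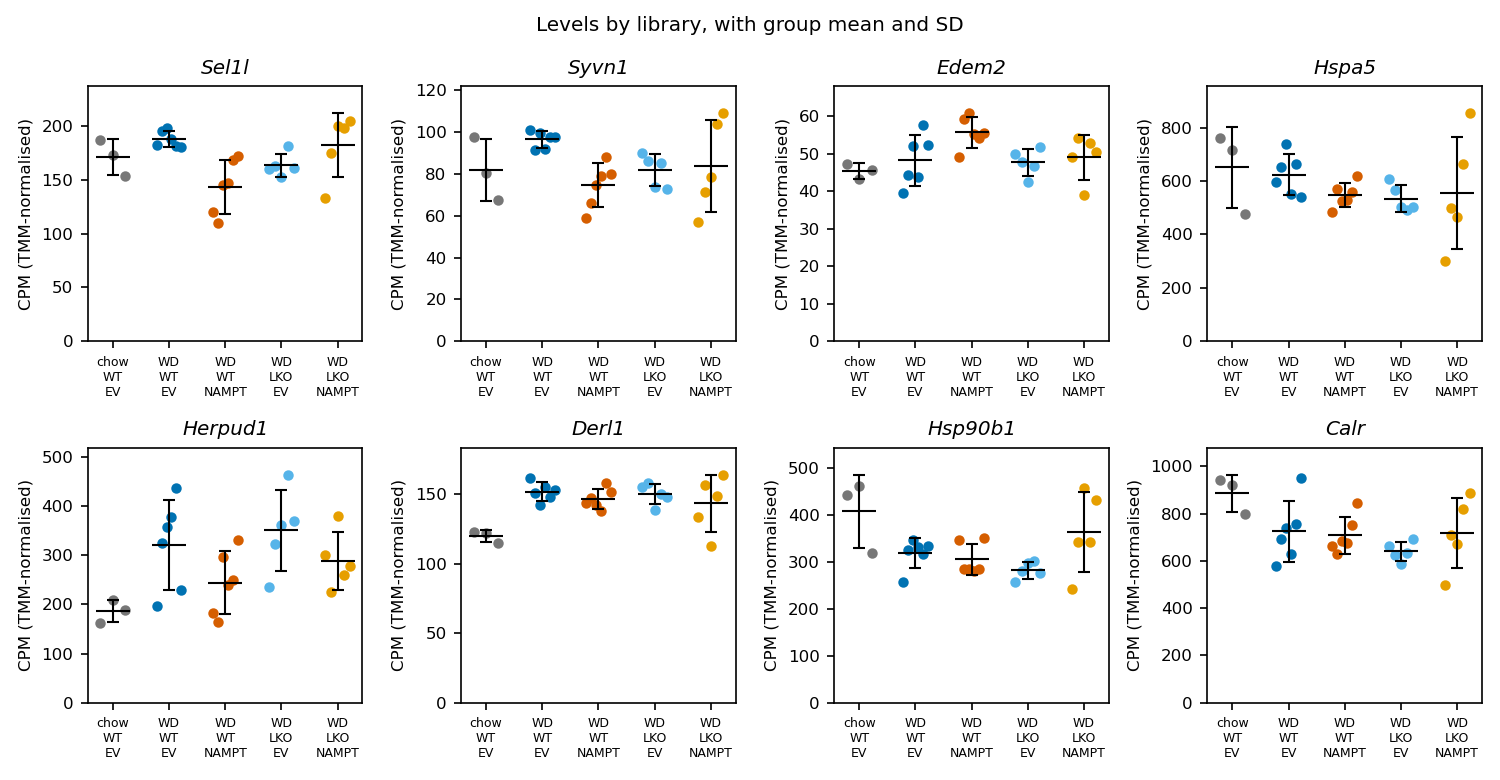
CPM of 8 genes by group, with 1 point per library and the group mean ± SD as a bar; the vertical axes are linear. Sel1l and Syvn1 show no overlap between WD WT EV and WD WT NAMPT, Hspa5 spreads from 302 to 853 CPM within WD LKO NAMPT, and the chow libraries lie below every WD WT EV library in Derl1.

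In the libraries labelled LKO, NAMPT was not accompanied by a called change in any of the 32 genes, and 1 gene of all tested was called (0.00711%). At an unadjusted p under 0.05, 6 members and 9.63% of all genes passed. The members leaned upward: 28 of 32 were positive, including all 10 HSP70 and HSP90 genes, with a median of 0.13 against 0.02 for all genes. Single libraries moved this: without WD LKO NAMPT replicate 5 the median was 0.07, with 23 positive and 0 members and 964 genes of all at an unadjusted p under 0.05, and without replicate 1 it was 0.20, with 15 such members and 1664 such genes. Without sample weights the median was 0.07, with 25 positive. The edgeR quasi-likelihood and exact tests and DESeq2 also called 0 members. Other ER genes leaned the same way: of the 86 described below, 62 were positive, with a median of 0.06.

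Hsp90b1, which encodes the ER chaperone GRP94, had the lowest adjusted p. It was measured at 257, 280, 297, 303 and 277 CPM in WD LKO EV and at 243, 342, 457, 342 and 433 CPM in WD LKO NAMPT (0.33 ± 0.11, adjusted p = 0.305). All but replicate 1 of the NAMPT libraries lay above every EV library. Hspa5 was at 608, 566, 503, 490 and 503 CPM in WD LKO EV and at 302, 499, 466, 662 and 853 CPM in WD LKO NAMPT (0.08 ± 0.15, adjusted p = 0.898). The NAMPT libraries held both the lowest and the highest Hspa5 value of the whole series, in replicates 1 and 5. Replicate 1 also stood apart in other markers: macrophage markers summed to 770 CPM there and to 285 to 427 in the other 4 libraries, stellate markers to 561 against 334 to 368, and neutrophil markers to 9.49 against 1.54 to 4.81. Their part in its low member levels was not tested. Over all libraries, the 5 cholangiocyte markers were lower in WD LKO NAMPT (median -1.12, 0 called, 3 at an unadjusted p under 0.05), with sums of 29.0 to 48.7 CPM, and their part was not tested either.

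Manf followed the same order in these 5 libraries, at 37.5, 60.6, 56.8, 84.8 and 115 CPM. The coefficient of variation of Hspa5 was 37.6% in WD LKO NAMPT and 8.45% to 12.1% in the other Western diet groups. Herpud1 went the other way from the chaperones on average, at 236, 322, 362, 463 and 369 CPM in WD LKO EV and 300, 224, 379, 259 and 277 CPM in WD LKO NAMPT (-0.38 ± 0.19, adjusted p = 0.519). Xbp1 was at 138, 140, 156, 184 and 160 CPM against 131, 210, 157, 166 and 196 (0.25 ± 0.13, adjusted p = 0.566).

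Among less abundant genes, Derl3, a derlin found mainly in secretory cells, was at 1.25, 0.201, 1.19, 1.08 and 0.57 CPM in WD LKO EV and at 1.81, 1.58, 0.785, 2.71 and 3.6 in WD LKO NAMPT (1.48 ± 0.60, adjusted p = 0.423), values that rest on as few as 4 counts. Sdf2l1, a cofactor of BiP, was at 19.4, 15.4, 16.7, 14.3 and 25.5 CPM against 12.5, 19.4, 10.3, 35.6 and 40.7 (0.42 ± 0.30, adjusted p = 0.7). Creld2 and Ero1l differed by 0.30 ± 0.22 and 0.27 ± 0.11 (adjusted p = 0.705 and 0.438). In each of the 4 the groups overlapped.

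The test of whether the NAMPT difference itself depended on genotype called no member and 1 gene of all (0.00711%). At an unadjusted p under 0.05 it passed 9 members and 21.2% of all genes. The members' interaction was positive in 26 of 32, with a median of 0.25 against -0.01 for all genes; with library size alone these were 0.10 and -0.15. Without WD LKO NAMPT replicate 5 the members' median was 0.14 and 3 members and 2110 genes of all passed at an unadjusted p under 0.05, and without replicate 1 the median was 0.31 and 16 members and 3540 genes passed. Sel1l came nearest to the threshold (0.55 ± 0.13, adjusted p = 0.0658). Beside its fall with NAMPT in WT, it was measured in LKO at 160, 163, 153, 182 and 161 CPM with EV and at 133, 175, 200, 198 and 205 CPM with NAMPT (0.17 ± 0.09, adjusted p = 0.566). No cell type marker was called in this test. All 7 macrophage (median -0.74), 6 stellate, 5 cholangiocyte (median -1.06) and 3 T cell markers tested (median -1.28) had a negative interaction. Hepatocyte markers were split, with 3 positive and 3 negative, and 3 of 4 B and plasma cell markers tested were positive. Their part in the differences was not tested.

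The 10 HSP70 and HSP90 genes had a median interaction of 0.37, with 4 at an unadjusted p under 0.05, and the 8 degradation genes a median of 0.33, with 3. Hsp90b1 had 0.45 ± 0.15 (adjusted p = 0.107), Manf 0.56 ± 0.25 (0.194), Creld2 0.52 ± 0.31 (0.325) and Hyou1, a large HSP70 relative, 0.41 ± 0.22 (0.28). Derl3 had 1.45 ± 0.74 (0.256) at low counts, Hspa5 0.30 ± 0.21 (0.418) and Xbp1 0.03 ± 0.19 (0.935). Single libraries decided this count. Without WD LKO NAMPT replicate 1, Sel1l, Hsp90b1 and Dnajc3 were called, beside 677 genes of all (4.82%). Without WD WT NAMPT replicate 5 or 6 Sel1l was called, beside 366 (2.6%) and 636 (4.53%) genes of all.

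**Figure D3:**
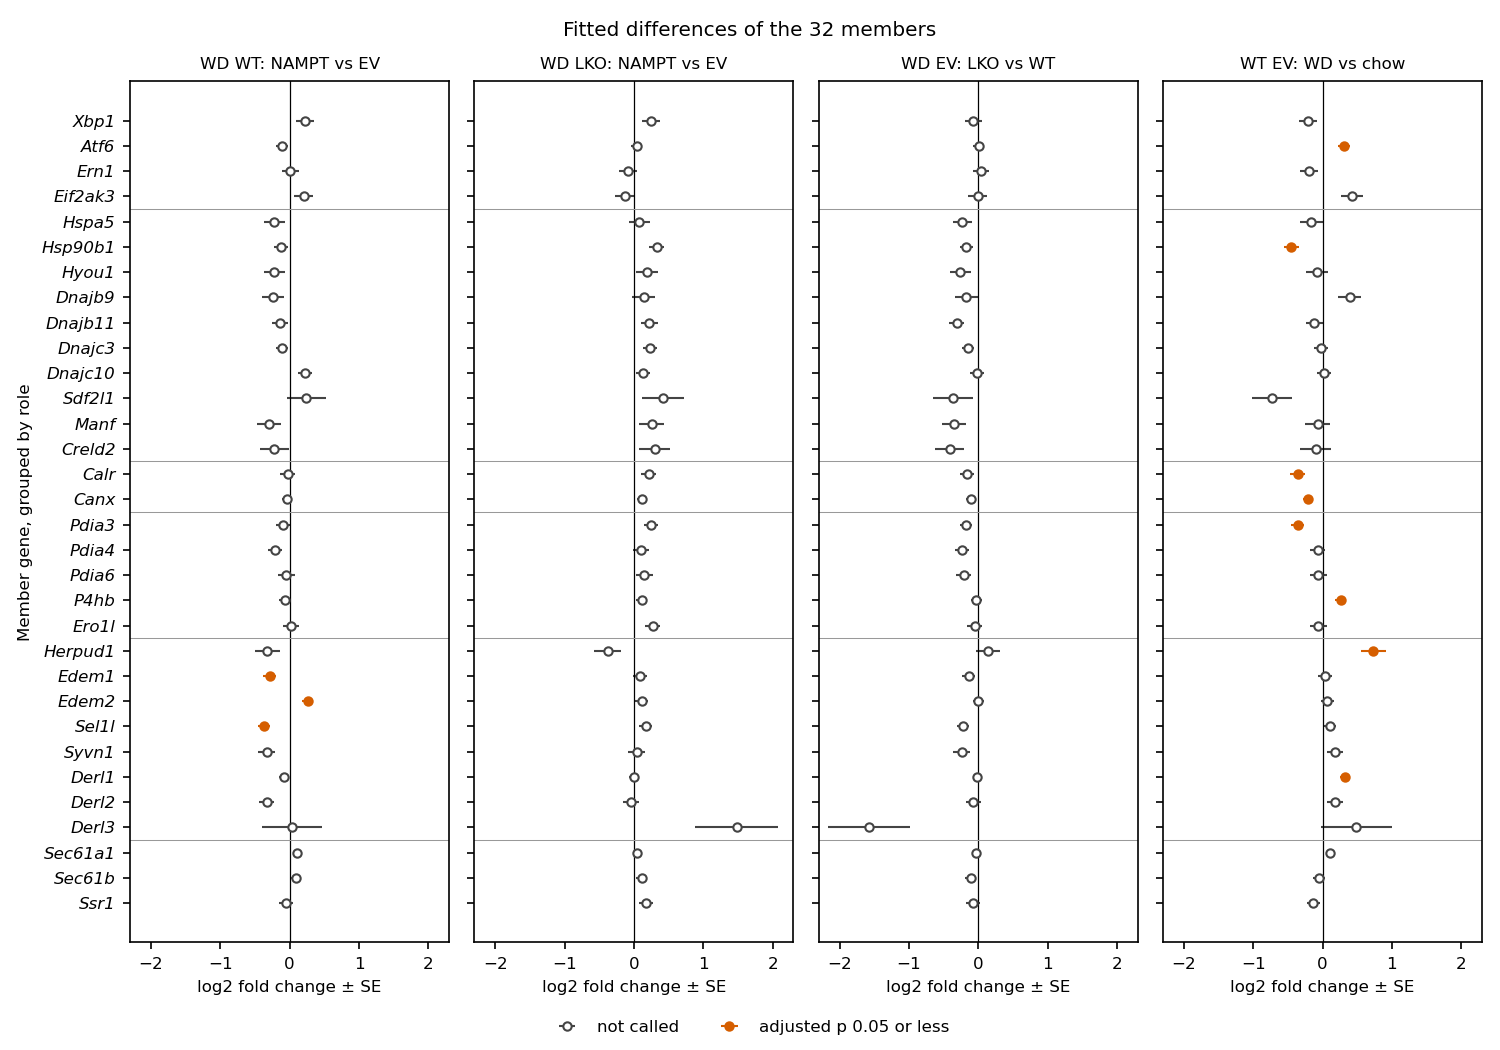
Log2 differences of the 32 genes ± SE in 4 comparisons, with called genes marked. The NAMPT difference in WT has a median of -0.08 and in LKO of 0.13, and the diet difference runs from -0.73 to 0.73.

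Between the genotypes under NAMPT, 1 member was called, Sel1l, which was higher in LKO (0.32 ± 0.09, adjusted p = 0.0361), or 3.12% of the members against 7.96% of all genes. At an unadjusted p under 0.05, 4 members and 28.6% of all genes passed. The Sel1l libraries given above overlapped, since WD LKO NAMPT replicate 1 (133 CPM) lay within the WT range. This comparison uses the same WD WT NAMPT libraries as the comparison with EV, so the pair of Sel1l calls is not independent. The call was lost in 10 of the 11 other settings, among them both edgeR tests, DESeq2, no sample weights and the replicate block, and kept with the clock score as a covariate. It was also lost without WD WT NAMPT replicate 1, 2, 3 or 4 or WD LKO NAMPT replicate 2, 3 or 5. Without WD LKO NAMPT replicate 1, 4 members were called (Sel1l, Hsp90b1, Edem1 and Dnajc3, all higher in LKO) beside 2266 genes of all (16.1%). Without WD WT NAMPT replicate 5, 2 were (Sel1l higher, Eif2ak3 lower), beside 1954 genes of all (13.9%). All 7 macrophage markers were lower in LKO than in WT under NAMPT, 3 of them called, with a summed level of 285 to 770 CPM in WD LKO NAMPT against 282 to 1170 in WD WT NAMPT, and 1 T cell and 1 cholangiocyte marker were called lower. Their part in the differences was not tested.

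Hsp90b1 was at 280 (lowest), 286 (median) and 350 CPM (highest) in WD WT NAMPT (0.28 ± 0.11, adjusted p = 0.101). Eif2ak3, the PERK kinase, was at 17.7, 26.6 and 28.8 CPM in WD WT NAMPT and at 19.7, 17.4, 18.8, 23 and 21.3 in WD LKO NAMPT (-0.34 ± 0.15, adjusted p = 0.133). Edem1, Derl2 and Manf differed by 0.24 ± 0.10, 0.22 ± 0.12 and 0.21 ± 0.18 (adjusted p = 0.123, 0.225 and 0.459). Hspa5 (0.07 ± 0.16, adjusted p = 0.787) and Xbp1 (-0.04 ± 0.14, adjusted p = 0.886) were not called.

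Between the genotypes under EV, no member was called, by limma, edgeR or DESeq2, and limma called 1 gene in all (0.00711%). At an unadjusted p under 0.05, 5 members and 6.33% of all genes passed. The members leaned downward in the libraries labelled LKO: 28 of 32 were negative, including all 10 HSP70 and HSP90 genes, both lectin chaperones and all 5 disulfide enzymes, with a median of -0.15 against 0 for all genes. The same WD LKO EV libraries serve as the reference of the NAMPT comparison in LKO, in which 28 members were positive, so these leanings share their libraries and are not separate evidence. Other ER genes leaned the same way: of the 86 described below, 66 were negative under EV, with a median of -0.05. Of 5 cholangiocyte markers 3 passed at an unadjusted p under 0.05 (median 0.52, 0 called), with sums of 23.5 to 76 CPM in WD LKO EV and 23.2 to 82.0 in WD WT EV, as did 2 of 6 endothelial markers, and their part in the leaning was not tested.

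Dnajb11, a J-domain cofactor of BiP, was lower in every LKO library, at 55.9, 55.5, 52.4, 55.4 and 59.0 CPM, than in every WT library, at 59.1, 63.9, 74.1, 61.3, 81.3 and 86.6 CPM (-0.31 ± 0.11, adjusted p = 0.642). Syvn1 was the other member without overlap, at 89.9, 86.4, 74.0, 85.4 and 73.0 CPM in WD LKO EV (-0.24 ± 0.12, adjusted p = 0.792). Its separation with NAMPT in WT rests on the same WD WT EV libraries, so both are not independent. Of all genes 0.327% were lower without overlap.

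Creld2, an ER protein with disulfide isomerase activity, was at 22, 14.1, 18.1, 14.3 and 16.3 CPM in WD LKO EV and at 17.4, 19.8 and 34.3 CPM (lowest, median, highest) in WD WT EV (-0.41 ± 0.21, adjusted p = 0.821). Derl3 differed by -1.57 ± 0.59 (adjusted p = 0.661), where WD WT EV replicate 8 alone reached 11.2 CPM and the others at most 2.54. Sdf2l1, Manf and Hyou1 differed by -0.36 ± 0.29, -0.35 ± 0.17 and -0.26 ± 0.15 (adjusted p = 0.94, 0.778 and 0.859). Hspa5 differed by -0.23 ± 0.14 (adjusted p = 0.886) and Xbp1 by -0.07 ± 0.12 (adjusted p = 0.99). Pdia3 spanned 306 to 312 CPM in WD LKO EV, a coefficient of variation of 0.89%.

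The diet moved members in both directions. Herpud1, Derl1, Atf6 and P4hb rose on Western diet, and Hsp90b1, Calr, Pdia3 and Canx fell, which is 8 of 32 (25%) against 22% of all genes (10.1% higher, 12.0% lower). The median of the members was -0.06 and that of all genes 0, and the members' median changed sign to 0.10 without chow replicate 1, to 0.05 without chow replicate 2, and to between 0.03 and 0.07 with either edgeR test, DESeq2, no sample weights, 2 surrogate variables or the clock score described below. Libraries of the groups did not overlap for Derl1, Atf6, P4hb and Canx, while 16.1% of all genes showed no overlap with these 3 chow libraries.

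The genes that rose were of degradation (Herpud1, Derl1), sensing (Atf6) and the disulfide enzymes (P4hb). Herpud1 was at 162, 208 and 189 CPM in chow WT EV and at 196, 341 and 436 CPM (lowest, median, highest) in WD WT EV (0.73 ± 0.18, adjusted p = 0.0054). Derl1 was at 123, 122 and 115 CPM on chow and at 142, 152 and 162 on Western diet (0.32 ± 0.07, adjusted p = 0.00157). Atf6 was at 75.5, 86.9 and 88.4 CPM against 91.0, 103 and 115 (0.31 ± 0.08, adjusted p = 0.00915). P4hb also rose without overlap (0.26 ± 0.08, adjusted p = 0.0248). All 8 degradation genes were positive, with a median of 0.18, and 2 of them were called. Of 14 other degradation genes, part of the 86 ER genes described below, 8 were positive, with a median of 0.04. Among these, 1 was called higher and 2 lower.

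The genes that fell were folding genes, whereas P4hb, the most abundant folding gene of the list, rose and Hspa5 was not called. Hsp90b1 was at 443, 462 and 319 CPM on chow and at 257, 328 and 347 CPM on Western diet (-0.45 ± 0.11, adjusted p = 0.00505). Calr was at 940, 921 and 797 CPM against 580, 716 and 949 (-0.36 ± 0.11, adjusted p = 0.0228). Pdia3, the disulfide isomerase that works with calreticulin and calnexin, was at 448, 475 and 359 CPM against 288, 350 and 437 (-0.36 ± 0.10, adjusted p = 0.0148). In these 3 genes the groups overlapped, with chow replicate 3 the lowest of its group. Canx (calnexin) fell by 0.21 ± 0.07 (adjusted p = 0.0404), from 449, 475 and 452 CPM to 352, 411 and 448 CPM, so that the groups were separated by 1 CPM.

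Hspa5 was at 761, 714 and 477 CPM on chow, a spread wider than that of WD WT EV (-0.16 ± 0.16, adjusted p = 0.506). Xbp1 was at 203, 176 and 182 CPM (-0.21 ± 0.13, adjusted p = 0.26). Sdf2l1 was at 40.2, 39 and 26 CPM on chow and between 11.6 and 48.4 on Western diet (-0.73 ± 0.29, adjusted p = 0.0756).

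The falls were not called by other tests. The edgeR quasi-likelihood test, edgeR's exact test, DESeq2 and limma without sample weights each called Derl1 and Herpud1 alone. Without chow replicate 1 only Derl1 was called, beside 966 genes of all (6.89%). Without chow replicate 2 Derl1 and Herpud1 were, beside 834 (5.95%). There were 11 calls without WD WT EV replicate 8, beside 3175 genes of all (22.6%). The log2 difference of Hsp90b1 was -0.27 without chow replicate 1 and -0.24 without chow replicate 2, and that of Pdia3 was -0.24 and -0.19. Clock genes separated the diets as well. A score over 16 clock genes was 1.26 to 1.99 in the chow libraries and -0.79 to 0.64 in WD WT EV, without overlap, and the hour of collection is not stated. With that score as a covariate the calls were Derl1, Dnajb9, Eif2ak3 and Syvn1, all higher, beside 2625 genes of all (18.7%). Herpud1 was then at 0.18 (adjusted p = 0.662). Cell type markers moved with the diet too. Hepatocyte markers summed to 57600 to 71500 CPM in WD WT EV, below every chow library, with 5 of 6 lower and 1 called. Called higher were 2 of 7 macrophage, 2 of 6 stellate and 1 of 6 endothelial markers, and called lower were 1 endothelial and 1 B and plasma cell marker. Their part in the differences was not tested.

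Within groups, the livers high in Hspa5 were high in a small set of its partners. The level of each gene in each library was taken as log2 CPM minus the group mean, and correlated with Hspa5 over the 25 libraries. Manf stood out (Pearson r = 0.98, Spearman rho = 0.96). Its permutation p was 1e-05 for both, the smallest that 100000 permutations within groups can give, and over the 14064 other genes the adjusted values were 0.047 and 0.028. It was 1 of 2 genes with a positive r and an adjusted p of 0.05 or less, 0.0142% of all. Without the libraries farthest in Hspa5, WD LKO NAMPT replicates 1 and 5, r was 0.96. Within the groups of 6 mice it was 0.98 in WD WT EV and 0.85 in WD WT NAMPT.

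Creld2 followed, with r = 0.82 (permutation p = 0.0001, adjusted 0.083), rho = 0.89 (p = 3e-05, adjusted 0.042) and r = 0.81 without the same libraries. Syvn1 had r = 0.83 (permutation p = 0.00018, adjusted 0.084), rho = 0.73 (p = 0.00091, adjusted 0.13) and r = 0.68 without them. Hyou1 had r = 0.83 (permutation p = 0.00071, adjusted 0.12), rho = 0.69 (p = 0.0028, adjusted 0.19) and r = 0.69 without them. Pdia4 and Dnajb11 reached 0.77 and 0.72 but 0.46 and 0.52 without those 2 livers.

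In all, 6 of the 31 other members (19.4%) had r of 0.7 or more, against 0.377% of all genes. Of the 86 other ER genes described below, 5 (5.81%) reached it: Sec23b (0.84), Atf6b (0.79), Mcfd2 (0.75), Hspa13 (0.71) and Ube2g2 (0.70), each named for its value. Without the 2 libraries farthest from the median of Hspa5 these were 0.75, 0.81, 0.67, 0.29 and 0.57. Also among the 86, Wfs1 had rho = 0.82 (permutation p = 1e-05, adjusted 0.028). Of 10 heat shock proteins outside the ER, 1 did, Hsph1 (0.72). The members' median r was 0.54, and that of all genes was -0.01. Much of this rested on the LKO NAMPT group: without its 5 libraries, Manf (0.96) and Creld2 (0.76) remained at 0.7 or more. The count was 4 without WD LKO NAMPT replicate 1 or replicate 5 and 11 without WD WT EV replicate 8.

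Several abundant folding genes and the sensors had an r with Hspa5 below 0.7. A difference between these and the genes above was not tested. Hsp90b1 had r = 0.57, Calr 0.67, Canx 0.64 and Pdia3 0.64, and without WD LKO NAMPT replicates 1 and 5 these were 0.20, 0.38, 0.11 and 0.23. Xbp1 (0.08), Atf6 (-0.03), Eif2ak3 (0.21) and Ern1 (0.35) lay low, as did Herpud1 (-0.05), which carries ERSE-II, and Dnajc10 (-0.14). Of 16 clock genes, 0 had an adjusted permutation p of 0.05 or less: the 5 genes high at one phase had r from 0.31 to 0.82, the highest in Nfil3 (adjusted 0.084), and those of the opposite phase from -0.57 to 0. The part of the hour of collection was not tested.

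**Figure D4:**
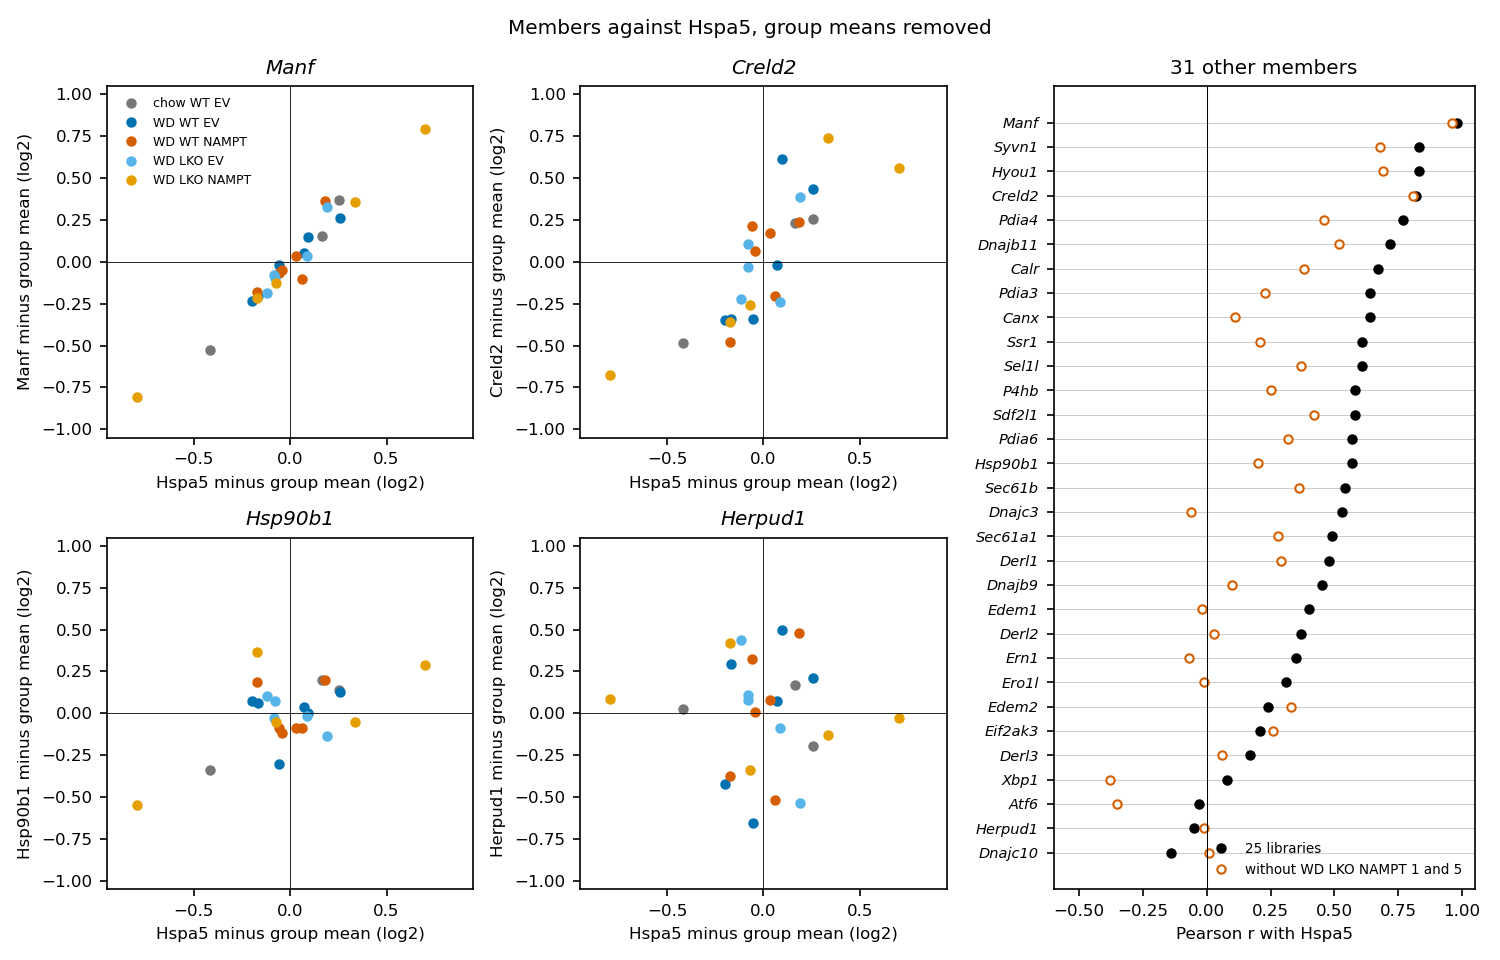
Left, Hspa5 against Manf, Creld2, Hsp90b1 and Herpud1 in 25 libraries, each as log2 CPM minus the group mean, coloured by group. Right, Pearson r with Hspa5 of the 31 other genes, over all libraries and without WD LKO NAMPT replicates 1 and 5: Manf keeps 0.96 of 0.98, whereas Hsp90b1 goes from 0.57 to 0.20.

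Of 86 other genes of the ER and the unfolded protein response, 4 rose and 4 fell with NAMPT in WT (9.3%), no larger a share than the 13.4% of all genes. The largest rises were in stress-induced factors. Ddit3, which encodes the transcription factor CHOP, was at 2.34, 3.37 and 5.86 CPM (lowest, median, highest) in WD WT EV and at 3.88, 6.65 and 14.6 in WD WT NAMPT (1.01 ± 0.23, adjusted p = 0.0125), with replicate 2 highest. Atf3 (2.02 ± 0.58, adjusted p = 0.0258) and Nupr1 (1.68 ± 0.51, adjusted p = 0.0315), also of the PERK and ATF4 arm, rose as well, and so did Kdelr3, a receptor that returns escaped ER proteins (1.22 ± 0.30, adjusted p = 0.0144). Of 10 genes in that arm, 3 were called, all higher. Atf4 itself differed by -0.02 ± 0.12 (adjusted p = 0.923).

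Among the genes that fell were Sar1b, the GTPase of vesicles leaving the ER (-0.57 ± 0.14, adjusted p = 0.015), Tmbim6 (BI-1), which restrains IRE1 (-0.33 ± 0.08, adjusted p = 0.0121, without overlap), and Ubxn4 (-0.33 ± 0.11, adjusted p = 0.0445). With the LKO label, NAMPT was accompanied by 0 calls among the 86 (against 0.00711% of all genes) and 7 at an unadjusted p under 0.05 (against 9.63%), and Ddit3 differed by -0.29 ± 0.24. The interaction of Ddit3 was -1.30 ± 0.34 (adjusted p = 0.0745), and between the genotypes under NAMPT Ddit3 was lower in LKO (-0.83 ± 0.23, adjusted p = 0.0337). That comparison, which shares the WD WT NAMPT libraries, called Kdelr3 lower too (-1.75 ± 0.34, adjusted p = 0.0141) and Sar1b (0.59 ± 0.15, adjusted p = 0.0255), Tmbim6 (0.27 ± 0.08, adjusted p = 0.0417) and Vcp, the ATPase that pulls proteins out of the ER (0.26 ± 0.08, adjusted p = 0.0419), higher, so that 5 of the 86 (5.81%) were called against 7.96% of all genes. Within WD WT NAMPT, Ddit3 was highest in replicates 1, 2 and 3, at 7.14, 14.6 and 8.82 CPM, which were also the highest in macrophage markers, and the part of those cells was not tested.

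The diet moved 24 of the 86 (14 higher and 10 lower, 27.9%), against 22% of all genes (10.1% higher, 12.0% lower). Sec24d, Sec13, Sec31a, Kdelr1 and Surf4, of traffic from the ER to the Golgi, rose, all without overlap, and all 13 genes of that list were positive. Sec24d, a vesicle coat subunit, rose by 0.54 ± 0.10 (adjusted p = 0.000325). Within the PERK and ATF4 arm the directions differed: Chac1 (2.49 ± 0.66, adjusted p = 0.00852) and Sesn2 (1.0 ± 0.13, adjusted p = 1.22e-05) rose, whereas asparagine synthetase, Asns (-3.45 ± 0.67, adjusted p = 0.000765), and Atf4 (-0.49 ± 0.12, adjusted p = 0.00546) fell. Atf4 was at 129, 94.7 and 80.0 CPM on chow and at 68.7, 72.9 and 84.3 (lowest, median, highest) on Western diet. Pdia5 (-0.85 ± 0.14, adjusted p = 9.48e-05) and Rpn1, a subunit of the glycosylation enzyme (-0.46 ± 0.08, adjusted p = 0.000302), fell with Pdia3 and Calr.

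Of 10 heat shock proteins outside the ER, 1 was called in the comparison of NAMPT with EV in WT, and it was the mitochondrial chaperonin Hspd1 (-0.21, adjusted p = 0.0386). Hspd1 was also the single call of that list between the genotypes under NAMPT (0.38, adjusted p = 0.0123) and for the diet (-0.25, adjusted p = 0.0136). Each count is 10% of the list, against 13.4%, 7.96% and 22% of all genes.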

How the data were processed

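RNA of 25 mouse livers was poly-A selected and sequenced as single reads of 50 bases. Alignment by the authors used STAR, and featureCounts gave them the reads that fell uniquely and unambiguously on each gene; the submitters' processing notes name STAR 2.5.1a, featureCounts 1.4.6-p5 and GRCm38. The deposited files hold raw counts per Ensembl gene, and the CPM and RPKM that the authors computed from them; recomputing both gave a largest relative deviation of 5.9e-14, and the counts were used from there on. Symbols were joined for 40254 of 41388 identifiers. Groups were taken from the sample titles. Genes above 1 CPM in at least 2 libraries were kept, without 4 ribosomal RNA genes, leaving 14065.

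Tests were limma 3.58.1 (voom with sample quality weights, TMM factors from edgeR 4.0.16, R 4.3.3) over all 25 libraries, with Benjamini-Hochberg adjustment over all genes and calls at 0.05. Values per library are TMM-scaled CPM, and log2 values for correlations used a pseudocount of 0.5. Scripts were tested on simulated data. Alternatives were edgeR's quasi-likelihood and exact tests, DESeq2 1.42.0, no sample weights, 2 other scalings, no filter, fewer groups, a replicate block, 2 surrogate variables (sva 3.50.0), the clock score and leaving out each library. Those of the correlation with Hspa5 were chosen after seeing the data. Its p-values were adjusted over all 14064 other genes instead of over the members alone, as had been planned.

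In each comparison Hspa5, Xbp1 and the 6 other genes with the largest change among those called (among all where fewer than 6 were called) were named; of other ER genes, up to 3 called in each direction, with Ddit3 and Atf4. Further genes named were chosen after their values were seen, and the members and lists were chosen with earlier results of these data known. Labels give no batch and do not say how mice were housed. Within a group, no library was a copy of another: between libraries of 1 group, the chi-square summed over genes, per degree of freedom, was at least 15.1. Libraries of different groups were not compared in this way. Protein sequences were not analysed here.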

Additional observations from a re-analysis of the deposited data

Results flagged for a closer look

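A single library stood apart from the rest of its group in 10 of 128 combinations of a gene and a Western diet group, where the gap to the nearest library exceeded Dixon's 95% limit; chance gives about 1 in 20. The 10 values came from 8 libraries. Sec61b was highest in WD WT NAMPT replicate 6 at 92.2 CPM (next 75.0) and lowest in WD LKO NAMPT replicate 1 at 51.3 CPM (next 66.0). In WD LKO EV, replicate 3 was lowest in Ern1 at 62.6 CPM (next 82.3) and in Hyou1 at 197 CPM (next 215), and replicate 4 was highest in Atf6 at 122 CPM (next 101). In WD WT EV, replicate 8 was highest in Derl3 at 11.2 CPM (next 2.54) and replicate 1 lowest in Hsp90b1 at 257 CPM (next 317). In WD WT NAMPT, replicate 2 was highest in Sdf2l1 at 41.6 CPM (next 29.7) and replicate 6 in Manf at 80.9 CPM (next 64.2). In WD LKO NAMPT, replicate 5 was highest in Derl2 at 138 CPM (next 99.3).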

How the results depend on the processing

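Of the comparisons, those of NAMPT with EV in LKO and of LKO with WT under EV called 0 members under every alternative and without any 1 library. For NAMPT in WT (3 members called), the count was 0 with the edgeR quasi-likelihood test and without sample weights, 1 (Sel1l) with edgeR's exact test, DESeq2 or no filter, 1 (Sec61b, none of the 3) with 2 surrogate variables, and 5 with library size alone, of which 4 were higher; leaving out 1 library gave 0 to 6. Over all genes this comparison called 1890, against 364 with the quasi-likelihood test, 859 with the exact test, 1194 with DESeq2, 192 without weights, 524 without the filter, 804 with only the groups compared, 65 with 2 surrogate variables, 2281 with library size alone, 2735 with the clock score and 132 to 2844 without single libraries (lowest without WD WT NAMPT replicate 3, highest without replicate 6). For the diet (8 called), the count was 2 with either edgeR test, DESeq2 or no weights, 5 without the filter or with 2 surrogate variables and 4 with the clock score; leaving out 1 library gave 1 to 11. All genes called for the diet were 3101, against 1301, 1465, 1745 and 1201 with those first 4 and 1970 without the filter. They were 2717 with 2 surrogate variables, 2625 with the clock score and 834 to 3175 without single libraries. For LKO with WT under NAMPT (1 called), the clock score kept 1 and the other 10 alternatives gave 0, with 0 to 4 over single libraries; all genes called were 1120, against 25, 177, 294 and 38 with the edgeR tests, DESeq2 and no weights, 13 with only the groups compared, 120 without the filter, 9 with 2 surrogate variables and 0 to 2290 without single libraries. The interaction called 1 member with the clock score, and 0 to 3 without single libraries; DESeq2 gave adjusted p-values for only 976 genes there, and over all genes it called 1, against 502 with the clock score, 13 with DESeq2 and 1 to 677 without single libraries. The number of members with r of 0.7 or more with Hspa5 (6) was 3 by rank, 2 without both farthest libraries, 12 without WD WT EV, 2 without WD LKO NAMPT, and 4 to 11 without single libraries. The causes of these shifts were not tested.

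Among single members, over the alternatives that kept all libraries, 448 values kept direction and side of the threshold, 51 lost and 3 gained a call, and 15 changed sign, none of these called. For Hspa5 the log2 difference with NAMPT in LKO became -0.02 without weights. Between genotypes under NAMPT it became -0.06 without weights and -0.03 with library size alone, and for the diet 0.26 with the clock score. The Xbp1 interaction became -0.11 (quasi-likelihood), -0.12 (DESeq2), -0.13 (no weights), -0.03 (upper quartile), -0.10 (library size), -0.04 (no filter) and -0.16 (2 surrogate variables). Without single libraries, values that changed sign ranged from -0.11 to 0.20 (Hspa5, NAMPT in LKO), -0.12 to 0.19 (Hspa5, genotypes under NAMPT), -0.24 to 0.10 (Hspa5, diet), -0.10 to 0.10 (Xbp1, interaction), -0.17 to 0.03 (Xbp1, genotypes under NAMPT), -0.13 to 0.02 (Xbp1, genotypes under EV) and -0.01 to 0.33 (Manf, genotypes under NAMPT).

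The titles link same-numbered mice by the number alone, and correlations of their deviations ran from -0.377 to 0.419 over all comparisons. Within the EV groups on Western diet the clock score divided along the numbering. In WD WT EV it was 0.59, 0.57 and 0.64 in replicates 1, 2 and 4. It was -0.38, -0.79 and -0.23 in replicates 6, 7 and 8. In WD LKO EV it was 0.61 and 0.46 in replicates 1 and 2. It was -0.53, -0.73 and -0.92 in replicates 3, 4 and 5. The reason was not tested. With the replicate number as a block, 2 members were called for NAMPT in WT (884 genes in all). For the diet 9 were called (3842 genes in all, 27.3%). Elsewhere the count was 0 (412 genes for the genotypes under NAMPT, 66 for the interaction). The Sel1l call between genotypes under NAMPT was thus lost. The members' median between genotypes under EV was then -0.07, with 8 positive. Hspa5 was then -0.01 with NAMPT in LKO and 0 between genotypes under NAMPT. Xbp1 was 0.11 between genotypes under EV, and its interaction was -0.16.

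Derl3, at 4 counts in its lowest library, is the member whose depth limits its values. With 3 chow libraries the diet comparison is the least replicated.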
